A study of Mus musculus with 12 samples.

Results

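The genes described here are 8 mouse genes whose signal was close to background in cultures of Dgcr8-deficient helper T cells and clear in wild-type cultures: Zfp979, Ifi202b, Adh1, Mctp1, H2-T3, Lratd1, Morc1 and Tktl1. They were picked for far lower signal on the Dgcr8-deficient arrays than on the wild-type arrays, so the difference between the genotypes is the reason for their selection and is given as a description, without a test. They were 8 of 14719 genes tested, and were read by 11 of the 41174 probes on the array. On the difference between the 2 control groups they held places 1 to 8 from the bottom of all genes tested.

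Helper T cells came from C57BL/6 mice aged 7 weeks, and expression was read on 12 one-colour Agilent 4x44K arrays, 3 in each of 4 groups. From 3 mice labelled DGCR8-deficient, 1 culture each got miR-29b and 1 a control miRNA, and from 3 wild-type mice 1 culture each got miR-29 inhibitors and 1 control inhibitors. All cultures were stimulated through CD3 and CD28 for 65 hours, kept in IL-2 for 48 hours, electroporated on days 1 and 4, and lysed on day 5, which was 24 hours past the second electroporation. The labels name neither the Dgcr8 allele nor a Cre driver, and they give the same strain for both genotypes. The mice carry the numbers 2, 3 and 4 within each genotype, and each mouse gave 1 array of both its conditions. Because the controls of one genotype were a miRNA and those of the other were inhibitors, genotype and kind of control cannot be told apart.

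DGCR8 is the RNA-binding partner of the nuclease Drosha, and together they cut the hairpins of most microRNAs out of their primary transcripts. Cells without it lack most mature microRNAs, which as a class hold down the level and translation of messenger RNAs with matching sites. The 8 genes do not form a pathway. Ifi202b, Zfp979 and Morc1 encode proteins of DNA sensing, DNA methylation and transposon silencing, H2-T3 a nonclassical MHC class I molecule, Adh1 and Tktl1 metabolic enzymes, and Mctp1 and Lratd1 a membrane protein and a cytoplasmic protein of less well known function. From mouse genetics, expression of Ifi202b, H2-T3 and the locus of Zfp979 is known to differ between inbred strains, and Ifi202b is known to be low in C57BL/6 mice and high in some other strains.

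A level below is the log2 of the background-subtracted spot signal minus that of the 75th percentile of its array, so a level of 0 is a bright probe and the lowest signals scored well above background lay between -8.58 and -7.00, depending on the array. By the scanner software 27301 to 31416 probes of an array passed as well above background and 0 spots were saturated. Over genes tested, with 1 probe each that was usable on every array, the levels of 2 arrays correlated at 0.9437 to 0.9954. One array, that of Dgcr8-deficient mouse 3 with miR-29b, had 1577 spots marked as outliers by the software, against 101 to 279 on the other arrays. Marked spots were left out, which removed 1 reading of Zfp979 and 1 of H2-T3. The cells of Dgcr8-deficient mouse 3 also read the Y-linked gene Ddx3y at -8.37 with miR-29b and -8.76 with control, against 0.62 to 2.33 on the other 10 arrays, so results are also given without that mouse.

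Dgcr8 itself was read by 1 probe, and the sources used here do not say whether it lies in the deleted part. Its level was -0.67, -1.02 and -0.35 with miR-29b and -0.74, -1.24 and -0.15 with control miRNA in Dgcr8-deficient cells, against -0.08, 0.74 and -0.13 with inhibitors and -0.16, 1.004 and 0.20 with control inhibitors in wild-type cells. The highest Dgcr8-deficient and the lowest wild-type value overlapped. The difference between the controls was -1.06 ± 0.38 (SE, n = 3 against 3), which did not pass the threshold in limma (adjusted p = 0.0721). It passed in 7 of 27 alternatives, with adjusted p between 0.00134 and 0.226, among them normexp background correction (0.0494) and the authors' deposited values (0.0486). The mean of the probe was lower in the cells labelled deficient and the probe stayed well above background there.

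Over all 11 probes, 25 of the 64 usable readings on Dgcr8-deficient arrays were well above background, against 66 of 66 on wild-type arrays. Among the Dgcr8-deficient readings these were 17 of 31 with miR-29b and 8 of 33 with control miRNA. Over all 41174 probes the miR-29b arrays also had more well above background, with 30069, 30930 and 31416 in mice 2, 3 and 4. Their control arrays had 28493, 29789 and 30815, so the rise over all probes was smaller in proportion than that of the member readings. The members were chosen on these arrays and their readings lie near background, so nothing particular to the 8 genes is read from this difference. The raw signals behind the member readings ran from 1.76 to 48.1 units on Dgcr8-deficient arrays and from 78.0 to 2553 units on wild-type arrays. For every probe, each usable Dgcr8-deficient level lay below each wild-type level, with a gap between the nearest values of 1.15 to 7.44. By this rule of no overlap, 1940 of 14719 genes (13.2%) had all their Dgcr8-deficient levels below all wild-type levels and 1400 (9.51%) had them above. Among genes tested for the control difference, 1869 (12.7%) were called lower and 1363 (9.26%) higher in limma at an adjusted p under 0.05. The members were chosen on this contrast, so nothing is read from their count against these shares.

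**Figure D1:**
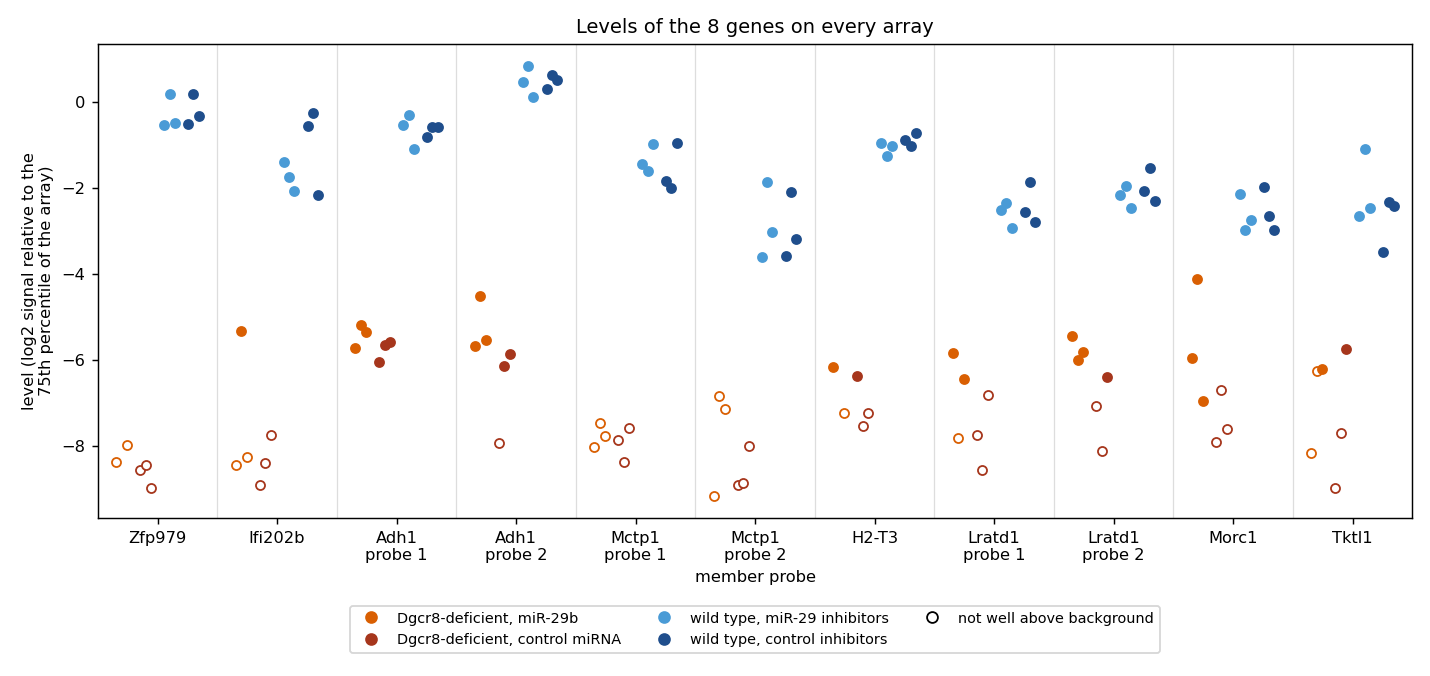
Levels of each member probe (vertical axis, log2 signal over the array's 75th percentile) on the 12 arrays, by group: Dgcr8-deficient with miR-29b, Dgcr8-deficient with control miRNA, wild type with inhibitors and wild type with control inhibitors, from left to right within each probe. Each point is 1 array and open points were not well above background; the nearest Dgcr8-deficient and wild-type points are 1.15 apart for Morc1 and 7.44 apart for Zfp979.

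Zfp979 encodes a KRAB zinc finger protein, a class of DNA-binding repressors that recruit KAP1, and the gene carries the synonym Ssm1b, for a strain-specific modifier of transgene methylation. Its level was -8.38 and -7.99 with miR-29b (mice 2 and 4) and -8.57, -8.44 and -8.98 with control miRNA in Dgcr8-deficient cells, against -0.54, 0.17 and -0.49 with inhibitors and -0.53, 0.19 and -0.33 with control inhibitors in wild-type cells. No usable Dgcr8-deficient reading was well above background and all 6 wild-type readings were. The control difference was -8.44 ± 0.27 (SE), and since the Dgcr8-deficient controls were not well above background, wild-type signal was at least 232-fold above them. This was the lowest difference of all genes tested, and its gap between the genotypes was the widest on usable readings. With the marked spot of mouse 3 kept, the gap would be 2.87, against 5.46 for Mctp1.

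The annotated promoters of 7 of the 8 genes were matched by symbol in RefSeq (GRCm38.p6), from 250 bases before to 50 bases after the gene start, and Morc1 was not in that table. Those of Zfp979, Ifi202b and H2-T3, the members known for strain differences, and of Adh1, in whose window an E-box was found, are printed 5′ to 3′ on the strand of the gene. Capitals mark the stretches that matched one of 4 motifs searched on both strands (the TATA box TATAAA, the E-box CACGTG, the E2F site GGCGGGAA, and the core of the interferon-stimulated response element).
Zfp979, chr4:147642459-147642758, minus strand: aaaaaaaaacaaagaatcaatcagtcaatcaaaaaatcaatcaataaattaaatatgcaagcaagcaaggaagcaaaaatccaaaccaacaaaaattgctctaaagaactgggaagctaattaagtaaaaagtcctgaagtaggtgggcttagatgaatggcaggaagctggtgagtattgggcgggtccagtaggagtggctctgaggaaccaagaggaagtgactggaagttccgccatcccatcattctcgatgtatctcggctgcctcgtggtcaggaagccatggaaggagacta
Ifi202b, chr1:173982795-173983094, minus strand: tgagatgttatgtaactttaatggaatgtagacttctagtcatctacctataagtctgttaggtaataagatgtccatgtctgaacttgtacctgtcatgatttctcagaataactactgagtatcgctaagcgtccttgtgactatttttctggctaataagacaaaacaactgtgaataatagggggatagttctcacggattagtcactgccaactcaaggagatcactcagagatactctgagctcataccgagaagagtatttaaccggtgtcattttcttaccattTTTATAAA
H2-T3, chr17:36190102-36190401, minus strand: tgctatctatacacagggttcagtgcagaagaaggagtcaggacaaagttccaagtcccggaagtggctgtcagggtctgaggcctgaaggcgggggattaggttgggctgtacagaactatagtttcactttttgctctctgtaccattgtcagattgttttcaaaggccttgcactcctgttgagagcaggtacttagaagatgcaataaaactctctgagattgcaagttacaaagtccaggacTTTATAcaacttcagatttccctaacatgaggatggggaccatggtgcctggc
Adh1, chr3:138277335-138277634, plus strand: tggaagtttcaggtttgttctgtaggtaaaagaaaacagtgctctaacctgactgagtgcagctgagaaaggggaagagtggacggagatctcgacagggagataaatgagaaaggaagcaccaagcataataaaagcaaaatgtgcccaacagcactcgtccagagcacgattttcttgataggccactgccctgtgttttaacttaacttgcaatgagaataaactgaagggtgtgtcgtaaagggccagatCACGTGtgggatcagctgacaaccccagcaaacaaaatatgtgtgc

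TATAAA was held by 13.6% of 32851 promoters of the same length, CACGTG by 7.15%, GGCGGGAA by 2.19% and the interferon-stimulated core by 3.44%. Ifi202b held TATAAA on both strands, in overlapping copies of which that on the strand of the gene begins 45 bases after the gene start, H2-T3 held it on the opposite strand at -3, and Adh1 held CACGTG at 5 bases after the start. No match to any of the 4 was found in the windows of Zfp979, Mctp1, Lratd1 and Tktl1. The promoters also differed in CG dinucleotides, with 2 in Mctp1 and H2-T3, 5 in Zfp979 and Ifi202b, 6 in Adh1, 13 in Tktl1 and 23 in Lratd1, where the quartiles of all promoters are 3, 7 and 20. The 7 windows thus shared neither a motif nor a common CG content.

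Ifi202b is a PYHIN protein that binds double-stranded DNA and is known in mice as an antagonist of the Aim2 inflammasome. Its level was -8.45, -5.35 and -8.28 with miR-29b and -8.93, -8.40 and -7.75 with control miRNA in Dgcr8-deficient cells, against -1.41, -1.75 and -2.07 with inhibitors and -0.55, -0.27 and -2.17 with control inhibitors in wild-type cells. Of the 6 Dgcr8-deficient readings, that of mouse 3 with miR-29b, at -5.35, was well above background, and it stood apart from the other 5. The control difference was -7.36 ± 0.77 (SE), with wild-type signal at least 136-fold above the Dgcr8-deficient controls. Wild-type values spread more than those of Zfp979, with the control of mouse 4 lowest. Ifi202b, Zfp979 and H2-T3 belong to families with closely similar copies, and whether their probes also read such copies was not tested.

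Morc1 is a GHKL ATPase known from mouse male germ cells, where it is needed to silence transposons. Its level was -5.96, -4.13 and -6.96 with miR-29b and -7.93, -6.71 and -7.60 with control miRNA in Dgcr8-deficient cells, against -2.14, -2.98 and -2.74 with inhibitors and -1.98, -2.66 and -2.98 with control inhibitors in wild-type cells. All 3 miR-29b readings and 0 of the 3 control readings of the Dgcr8-deficient cells were well above background. The control difference was -4.87 ± 0.62 (SE), with wild-type signal at least 28.6-fold above the Dgcr8-deficient controls. Because of the value at -4.13, Morc1 had the narrowest gap of the 8 genes on usable readings, 1.15, and 138 genes had a gap at least as wide.

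H2-T3 encodes the thymus leukaemia antigen, a nonclassical MHC class I molecule that binds the CD8αα homodimer and is known to be present or absent on thymocytes depending on the strain. Its level was -6.17 and -7.25 with miR-29b (mice 2 and 4) and -6.37, -7.53 and -7.25 with control miRNA in Dgcr8-deficient cells, against -0.95, -1.26 and -1.03 with inhibitors and -0.89, -1.03 and -0.72 with control inhibitors in wild-type cells. Wild-type values lay within a narrow range, and 2 of the 5 usable Dgcr8-deficient readings, 1 in each condition, were well above background. The control difference was -6.17 ± 0.34 (SE), a 72.2-fold difference with 1 of the 3 Dgcr8-deficient controls well above background.

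Adh1, the class I alcohol dehydrogenase, oxidises ethanol and retinol, and was well above background on more Dgcr8-deficient arrays than any other member. It was read by 2 probes. The brighter, probe 2, gave -5.67, -4.51 and -5.55 with miR-29b and -7.94, -6.15 and -5.88 with control miRNA in Dgcr8-deficient cells, against 0.47, 0.84 and 0.11 with inhibitors and 0.29, 0.62 and 0.50 with control inhibitors in wild-type cells. All but the lowest of these Dgcr8-deficient readings were well above background, so a low signal remained. Probe 1 was well above background on all 6 Dgcr8-deficient arrays, between -6.06 and -5.20, against -1.09 to -0.32 on wild-type arrays. The control differences of the 2 probes were -7.13 (139.8-fold) and -5.11 (34.4-fold), with the brighter probe first, so they gave the same order of groups and different sizes.

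Tktl1 is a transketolase-like protein related to the enzyme of the non-oxidative pentose phosphate pathway. Its level was -8.18, -6.27 and -6.22 with miR-29b and -8.98, -7.70 and -5.75 with control miRNA in Dgcr8-deficient cells, against -2.66, -1.11 and -2.46 with inhibitors and -3.50, -2.32 and -2.42 with control inhibitors in wild-type cells. Both arrays of Dgcr8-deficient mouse 4 were well above background and the other 4 were not. The control difference was -4.73 ± 0.81 (SE), the smallest and the least precise of the 8, and 26.6-fold on the measured means. Tktl1 lies on the X chromosome and the other members lie on 7 different autosomes (1, 3, 4, 12, 13, 16 and 17).

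Mctp1 is a membrane protein with C2 domains, which bind calcium and phospholipids. Probe 1 gave -8.04, -7.47 and -7.78 with miR-29b and -7.86, -8.39 and -7.58 with control miRNA in Dgcr8-deficient cells, against -1.46, -1.61 and -0.99 with inhibitors and -1.84, -2.01 and -0.97 with control inhibitors in wild-type cells. Neither its Dgcr8-deficient readings nor those of probe 2, which ran from -9.18 to -6.84, were well above background. The wild-type readings of probe 2 were dimmer, from -3.61 to -1.87. The bounds on the control difference were at least 75.7-fold for probe 1 and at least 34.9-fold for probe 2.

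Lratd1, formerly Fam84a, belongs to a family defined by a domain shared with lecithin retinol acyltransferase. Probe 2, the brighter, gave -5.46, -6.01 and -5.81 with miR-29b and -7.08, -8.12 and -6.40 with control miRNA in Dgcr8-deficient cells, against -2.16, -1.95 and -2.48 with inhibitors and -2.08, -1.54 and -2.30 with control inhibitors in wild-type cells. All 3 miR-29b readings lay above all 3 control readings within the Dgcr8-deficient cells. Its control difference was -5.22 ± 0.39 (SE), or 37.3-fold on the measured means, with 1 of the 3 Dgcr8-deficient controls well above background. Probe 1 ran from -8.56 to -5.84 on Dgcr8-deficient arrays and from -2.94 to -1.86 on wild-type arrays, with a bound of at least 36.4-fold.

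All usable Dgcr8-deficient levels lay below all wild-type levels by the choice of the genes, so their order within slides and scan days is fixed and only the sizes are described. In the controls of Dgcr8-deficient mouse 2 and wild-type mouse 2, which shared a slide, the 11 probes differed by -8.37 to -5.00. In those of Dgcr8-deficient mouse 4 and wild-type mouse 3, which shared another slide and were the 2 controls scanned on the second day, they differed by -9.17 to -3.43. Among the 4 controls scanned on the first day the range was -8.08 to -4.84. Without Dgcr8-deficient mouse 3, whose Y-linked genes were near background, the control differences ran from -8.55 to -4.62. The size depends on how background is treated, since these are signals near the floor: the median of the 8 control differences was -6.26, against -2.87 after normexp background correction with quantile normalization and -3.46 in the authors' deposited log2 values.

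Just below the members in the order of control differences stood Stc2 at -4.52, St6galnac2 at -4.46, Hddc3 at -4.42 and Hc at -4.39. Tktl1 stood at -4.73, so no break separates the 8 genes from the next. St6galnac2 had an SE of 1.66, and its lowest wild-type level (-1.75) lay below its highest Dgcr8-deficient level (-1.51). The median difference over all genes was -0.0831. A rise of at least 4.73 was seen in 34 genes. The other 10 genes with the widest gap between the lowest of 6 wild-type levels and the highest Dgcr8-deficient level were Padi4, Klk8, Rbm45, Kcnf1, Hddc3, Rnf128, Lyplal1, Hc, Stc2 and Magi1. They were chosen by their gap and are described only. On usable readings their gaps ran from 2.53 for Padi4, a protein citrullinating enzyme, to 2.17 for Magi1, a junction scaffold. These were narrower than those of the 6 members with the widest gaps, where Lratd1 had 2.98 and Zfp979 7.44.

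Most of these 10 genes kept signal in Dgcr8-deficient cells. Klk8, a secreted serine protease, averaged -1.40 ± 0.73 in Dgcr8-deficient controls and 2.43 ± 0.47 in wild-type controls (SD, n = 3 each), and Hc, complement component C5, averaged -4.52 ± 0.29 in Dgcr8-deficient controls and -0.13 ± 0.59 in wild-type controls. Rnf128, the ubiquitin ligase also called Grail that is known from T cell anergy, averaged -5.51 ± 0.57 in Dgcr8-deficient controls and -1.95 ± 0.38 in wild-type controls. Kcnf1, a potassium channel subunit, was the 1 gene of the 10 that was not well above background on any Dgcr8-deficient array, at -7.73 ± 1.01 in Dgcr8-deficient controls and -3.36 ± 0.67 in wild-type controls, which is at least 18.3-fold. In the other direction, 231 genes had a gap of at least 1.15, and the widest belonged to Apol7c, at 2.35 ± 1.01 in Dgcr8-deficient controls and -8.52 ± 0.48 in wild-type controls. It was followed by Usp18, the protease that removes ISG15, Rab6b, a small GTPase, Ubd, the ubiquitin-like protein FAT10, and Scrg1, with fitted control differences of 6.95, 6.33, 7.69 and 6.22. Apol7c, Rab6b and Ubd were not well above background on any wild-type control, and their signal in Dgcr8-deficient controls was at least 1282.5-fold, 68.8-fold and 207-fold above it. Wide gaps between the genotypes were thus found in both directions.

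**Figure D2:**
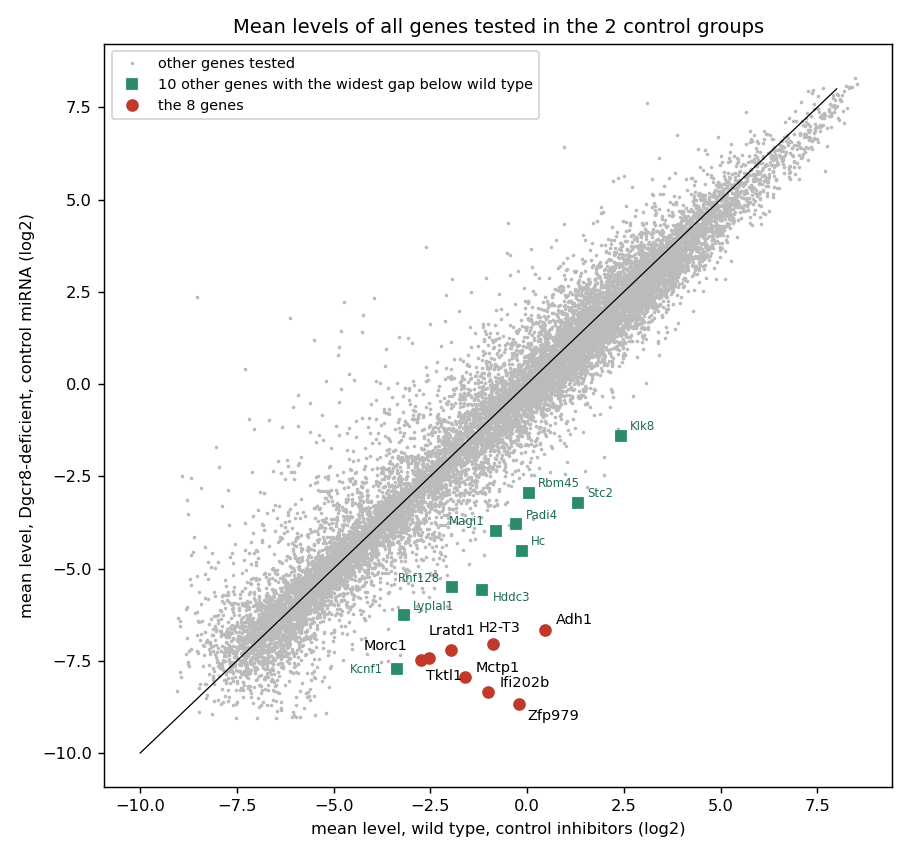
Mean level of each of 14719 genes in Dgcr8-deficient controls (vertical axis, log2) against wild-type controls (horizontal axis, log2), 3 arrays each, with the line of equal levels. The 8 genes (red) lie at -8.67 to -6.66 on the vertical and at -2.75 to 0.47 on the horizontal axis, and the 10 other genes with the widest gap (green) lie between them and the line, with Kcnf1 nearest to the members.

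Whether genes beside the members on their chromosomes also differed was asked with the 10 nearest tested genes on each side, 160 distinct genes in all, taken in RefSeq gene order. Of these 18 were called lower (11.2%) and 26 higher (16.2%) in Dgcr8-deficient controls by limma, against 12.7% and 9.26% of all genes tested. Their median difference was 0.0058, against -0.0831 over all genes.

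Around Zfp979, Zfp982, a zinc finger gene of the same cluster, was lower (-1.66 ± 0.36, adjusted p = 0.00718), while its direct neighbour Zfp933 was higher (1.12 ± 0.17, adjusted p = 0.00144), as were Dhrs3, a retinal reductase, at 1.24 and Miip at 0.58. Around Ifi202b, the DNA sensor Aim2 was lower by limma (-2.93 ± 0.85, adjusted p = 0.031), and it was well above background on 0 of 3 Dgcr8-deficient controls, so that wild-type signal was at least 4.02-fold above them. The PYHIN genes Ifi211 and Ifi209 were higher there, at 1.34 and 0.92, as was Olfr430 at 1.54. Near H2-T3, the MHC class I genes H2-T22, H2-Bl and H2-M10.2 were higher, at 1.76, 1.93 and 1.18, with 2310061I04Rik at 0.80, and Rpp21 and Znrd1 were lower at -1.28 and -1.04. Family genes were thus called in both directions near Zfp979 and near Ifi202b, and those called near H2-T3 were higher.

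Adh1 had 7 neighbours called higher, among them Gbp5 and Gbp7, interferon-induced GTPases, at 3.94 ± 0.28 and 2.31 ± 0.17 (limma, adjusted p = 1.35e-05 and 1.82e-05). The others were Bank1, a B cell scaffold protein, at 2.13, Ddit4l at 1.20, Trmt10a at 1.11, Ppp3ca, a calcineurin catalytic subunit, at 1.01 and Metap1 at 0.94. The 1 called lower was Adh5, the class III alcohol dehydrogenase, at -0.55 ± 0.17. Around Mctp1 the transcription factor Mef2c was higher at 5.70 ± 0.48 (limma, adjusted p = 3.92e-05). It was not well above background on any of 3 wild-type controls, which makes it at least 41.0-fold higher, and likewise Rhobtb3, at 1.74, was at least 3.35-fold higher. Also higher were Ell2 at 1.62, Arrdc3 at 1.15 and Erap1 at 0.86. Pcsk1 and Cetn3 were lower there at -1.96 and -0.51.

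Morc1 and Lratd1 each had a neighbour with a large drop. Directly beside Morc1 lies Trat1, an adaptor protein of the T cell receptor complex, which was lower by limma at -3.96 ± 0.49 (adjusted p = 0.000339). The gene BC016579 was lower there at -2.58, and Nectin3 and Bbx were higher at 1.35 and 1.30. Near Lratd1, Kcnf1 was lower at -4.37 ± 0.70 (limma, adjusted p = 0.00143), or at least 18.3-fold, with Ttc32, Trib2 and Rdh14 at -1.53, -1.22 and -0.46, while Cyria and Lpin1 were higher at 1.59 and 1.22. Around Tktl1, the 5 called neighbours Lage3, Ssr4, Naa10, Arhgap4 and Dnase1l1 were all lower, at -1.26 to -0.65, much less than Tktl1 itself.

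Around Dgcr8 the 25 nearest tested genes on each side were read in the same way, since Morc1 shares its chromosome, 16. Of these 50 genes 7 were called lower (14.0%) and 3 higher (6.0%). Among the lower genes were Ydjc, Ccdc116, 2510002D24Rik, Tango2, Mrpl40 and Parl, at -1.64 to -0.72, and the direct neighbour Tango2 stood at -0.88 ± 0.16. Serpind1, Prodh and B3gnt5 were higher, at 3.19, 2.68 and 2.41. Serpind1 was not well above background on any wild-type control, which makes it at least 6.48-fold higher. No neighbour of Dgcr8 was as low as any of the 8 genes.

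The count of called neighbours of the members, 44, moved with single arrays. It was 26 without the control of Dgcr8-deficient mouse 2, 28 and 29 without the controls of wild-type mice 2 and 4, and 21 and 23 without both arrays of wild-type mouse 2 or 4. It was 71 with scan day and 76 with slide as a fixed block, and the count around Dgcr8 was 22 with either.

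**Figure D3:**
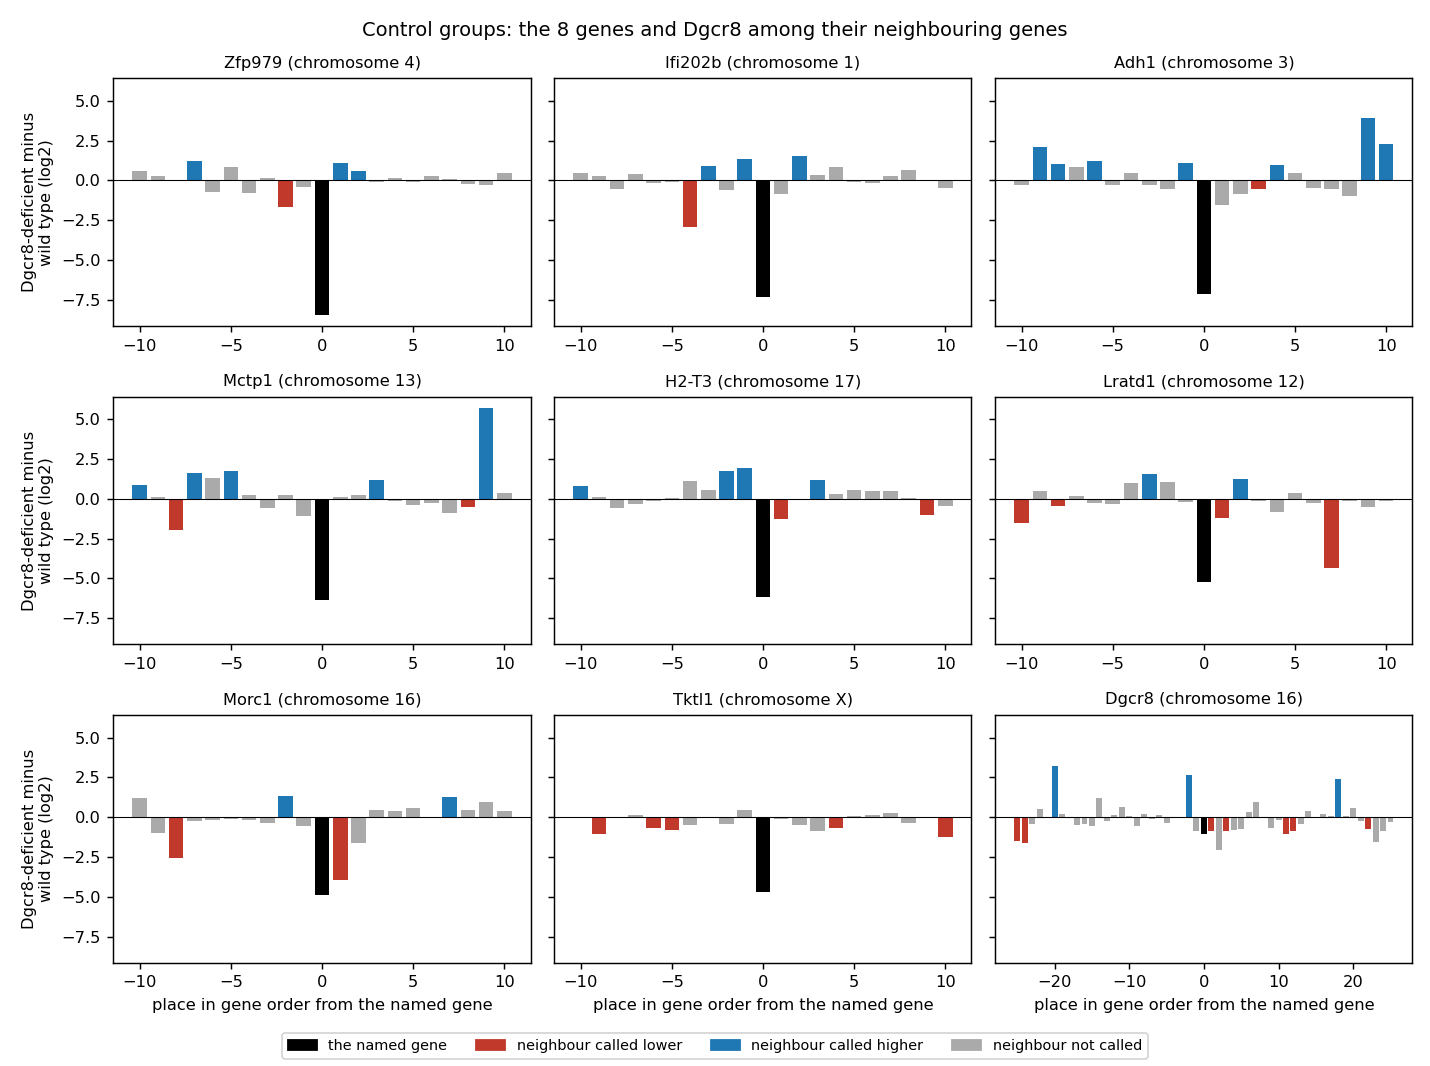
Difference between Dgcr8-deficient and wild-type controls (vertical axis, log2) of each member and of Dgcr8 (black) and of the tested genes on either side, by place in gene order (horizontal axis), with neighbours called lower in red, called higher in blue and not called in grey. The members stand at -8.44 to -4.73 and Dgcr8 at -1.06, and the fitted differences of the 160 neighbours run from -4.37 for Kcnf1 to 5.70 for Mef2c, each of which was not well above background in the controls of one genotype.

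Relatives of the members, their pathways, and genes of strain differences, microRNA processing and DNA methylation were read as 11 lists. Over the 11 lists, 126 distinct genes other than the members were tested, of which 11 were called lower (8.73%) and 23 higher (18.3%), against 12.7% and 9.26% of all genes. Because the lists were drawn up with results of these data known, they carry no test of their own.

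Among 4 other PYHIN genes tested, 1 was lower (Aim2) and 2 higher (Ifi211 and Ifi209), and Ifi204 stood at -0.62 ± 0.24 without passing. Among 5 other KRAB zinc finger genes, Zfp982 was lower and Zfp933 higher, and Zfp987 and Zfp985 at -0.79 and -0.40 were not called. Of 10 other MORC and germ-line genes only Piwil2, a piRNA-binding protein, was called, and it was lower at -2.46 ± 0.55 (limma, adjusted p = 0.00873). Morc3, Morc2a and Morc2b, at 0.62, -0.32 and 0.43, were not called. Of 16 other genes of DNA methylation, Uhrf1, which recruits the maintenance methyltransferase, and Mbd4, a thymine glycosylase, were lower at -1.09 and -0.95 and Zbtb4 was higher at 0.96.

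Of 16 other genes in the list around nonclassical MHC class I, 5 were higher and 1 lower. The list also holds the classical genes H2-K1 and H2-D1 and the light chain B2m, none of them called. H2-Q8 and H2-Q1 were higher at 3.28 ± 0.22 and 2.15 ± 0.22 (limma, adjusted p = 9.02e-06 and 0.000104), as were H2-Bl, H2-T22 and H2-M3. The lower gene was Mr1, which presents vitamin B metabolites, at -1.42 ± 0.28. The median of these 16 genes was 0.575, against -6.17 for H2-T3.

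Of 17 other genes of alcohol and retinoid metabolism, Aldh2, Cyp26b1 and Dhrs3 were higher at 1.43, 1.28 and 1.24 and Adh5 was lower, with a median of 0.00319 over the 17. In the pentose phosphate pathway 3 of 12 other genes were lower, namely Pgd, Pgls and Taldo1 at -1.104, -1.0016 and -0.57, and Rbks, the ribokinase, was higher at 0.82. Transketolase itself, Tkt, stood at -0.74 ± 0.25 and did not pass (adjusted p = 0.0598). Among 13 other C2 domain proteins, Myof, or myoferlin, was higher at 5.64 ± 1.06 and Syt11 lower at -0.84 ± 0.26. None of 3 other LRAT-domain genes was called in limma and 1 had an unadjusted p under 0.05, with Plaat3, Plaat5 and Plaat1 at 0.61, 1.47 and -0.15.

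Of 18 other genes known to differ among inbred mouse strains, limma called 0 lower and 5 higher in Dgcr8-deficient controls, against 12.7% and 9.26% of all genes, with 3 lower at an unadjusted p under 0.05. The 5 higher genes included Cd244a, an NK and T cell receptor, at 1.92 ± 0.36. Also higher were Casp4, the murine caspase 11, at 1.80 ± 0.42, Fcgr2b, an inhibitory Fc receptor, at 1.40 ± 0.38, and Cyfip2 at 0.70. Another 5 genes of this list had no probe or only dim ones and were not tested. The list does not separate genes that differ between strains in level from those that differ in sequence, so nothing on strain background is read from these counts. Of 13 genes of microRNA processing and silencing, Tarbp2, Tnrc6b, Tnrc6c and Dicer1 were higher at 1.31, 1.18, 1.17 and 0.68 and none was called lower in limma, with 2 lower at an unadjusted p under 0.05. Strain background and microRNA levels were not measured on these arrays, and their part in the low signal of the 8 genes was not tested.

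The count of 34 called list genes was 21 without the control of Dgcr8-deficient mouse 4, 22 without the control of wild-type mouse 2, and 20 without both arrays of wild-type mouse 2 or of wild-type mouse 4. It was 65 with scan day and 68 with slide as a fixed block.

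**Figure D4:**
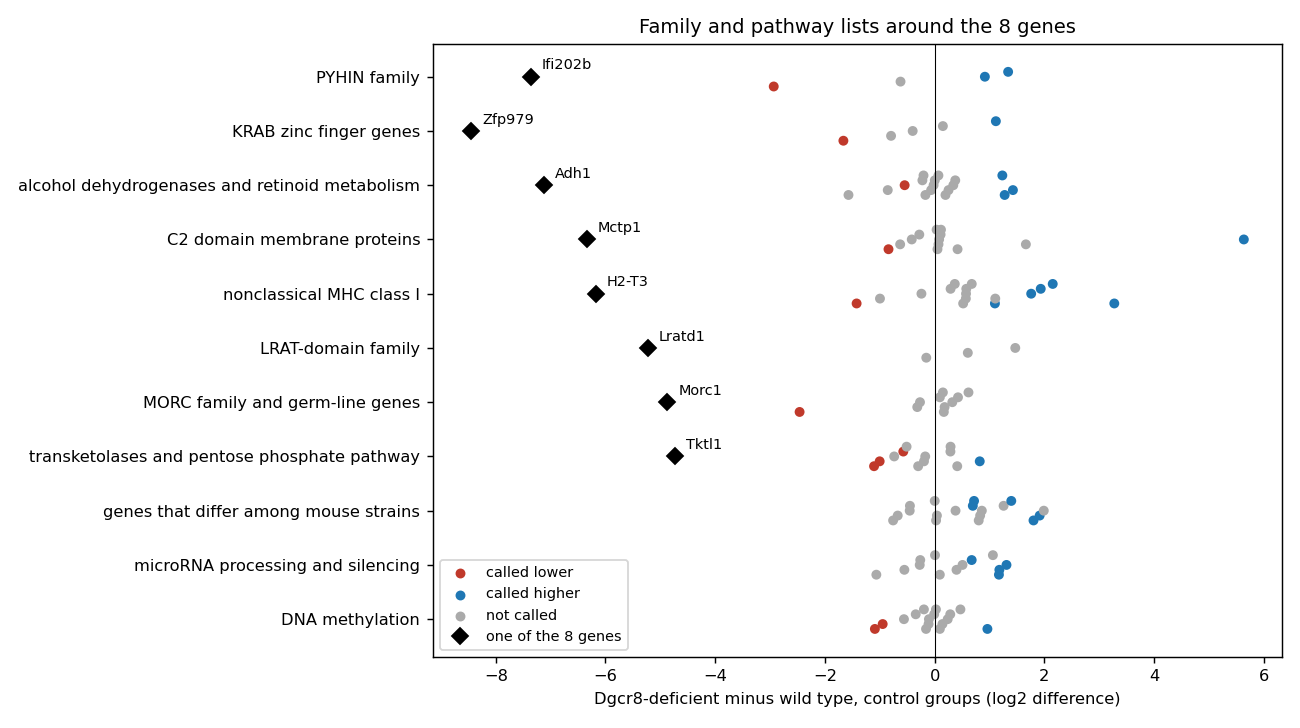
Difference between Dgcr8-deficient and wild-type controls (horizontal axis, log2) of the genes in 11 family and pathway lists (rows), with called genes in red (lower) and blue (higher), genes not called in grey and the member that belongs to a list as a black diamond. The members stand at -8.44 to -4.73, and the lowest fitted value of another gene is -2.93 for Aim2, which was not well above background on any Dgcr8-deficient control.

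Of the markers of other cell types, 4 of 5 of B cells were called, 1 of 4 of NK cells, 2 of 6 of myeloid and dendritic cells and 2 of 6 of epithelial and stromal cells, against 22% of all genes called in either direction. The 8 helper T cell markers were well above background in both genotypes, with linear signals summing to 237 to 275 times the 75th percentile on Dgcr8-deficient controls and 280 to 344 on wild-type controls. Of these Cd40lg and Lck were lower at -0.96 and -0.67, Cd28 was higher at 1.25 and Cd4 stood at 0.16 ± 0.19. Of 5 B cell markers 4 were higher, among them Ms4a1, Cd79b and Cd79a at 5.86, 3.83 and 1.44, while Pax5 did not differ beyond its error (0.00 ± 0.36). Their summed signal was 4.20 to 9.19 on Dgcr8-deficient controls and 0.346 to 0.499 on wild-type controls.

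Of 4 NK cell markers Klrk1 was higher at 3.52. Of 6 myeloid and dendritic markers the dendritic cell gene Itgax was higher at 2.61, or at least 6.10-fold, since it was not well above background on any wild-type control, and the macrophage gene Adgre1 was lower at -2.72. Of the 6 epithelial and stromal markers Epcam was higher at 1.28 and Col1a1 lower at -2.03, and of the CD8, erythroid and platelet, and germ cell markers none was called in limma, with 1, a platelet gene, at an unadjusted p under 0.05. In cultures read as a whole, fewer cells of a type and less RNA per cell cannot be told apart. The part of these markers in the levels of the 8 genes was not tested.

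Transfection of miR-29b into Dgcr8-deficient cells asks whether adding 1 microRNA to cells labelled DGCR8-deficient changes these genes. Their choice used all Dgcr8-deficient arrays, those with miR-29b included, so a gene brought near its wild-type level by miR-29b could not have been chosen. The choice also favoured genes with low readings on the control arrays, the reference here, which can push differences with miR-29b upward. The comparison and its p-values are thus not independent of the choice. The mature sequence of miR-29b from RefSeq (GRCm38.p6), which is the same for the genes on chromosomes 1 and 6, is given with its seed, bases 2 to 8, in capitals.
mmu-miR-29b-3p: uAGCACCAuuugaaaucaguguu

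In the fit with all 12 arrays as independent samples, none of the 8 genes passed the threshold in limma and 3 had an unadjusted p under 0.05, where 324 of 14719 genes (2.2%) were called, 175 (1.19%) lower and 149 (1.01%) higher. The largest differences were higher levels, of 1.73 ± 0.62 in Morc1 (adjusted p = 0.219), 1.44 ± 0.39 in Lratd1 (adjusted p = 0.0973) and 1.41 ± 0.50 in Adh1 (adjusted p = 0.209). The count over all genes rested on single arrays: it was 0 to 287 when arrays or mice were left out, 0 with only the 6 Dgcr8-deficient arrays, and 3316 (22.5%) when the mouse was a block.

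The cultures of a mouse are a pair. In a fit that blocks on the mouse, 3 of the 8 genes (Lratd1, Morc1 and Adh1) were called higher with miR-29b. Of all genes, 13.1% were called higher and 9.42% lower. The members were chosen on these same arrays, so nothing is read from their count against these shares. Of the 3 control readings of each gene, 0 in Morc1, 1 in Lratd1 and 2 in Adh1 were well above background. Lratd1 was higher by 1.62, 2.11 and 0.58 in mice 2, 3 and 4 (adjusted p = 0.0177), Morc1 by 1.97, 2.57 and 0.64 (adjusted p = 0.021) and Adh1 by 2.27, 1.63 and 0.33 (adjusted p = 0.0373). All 3 were thus higher in 3 of 3 mice, a direction that choosing genes with low control readings favours. Mouse 4 had the smallest difference each time. Probe 1 of Adh1, which was well above background on every array, was higher by 0.33, 0.46 and 0.23, and probe 1 of Lratd1 by 1.92, 0.74 and 0.38.

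The 3 calls depended on how signals near background were treated. With the mouse as a block, the differences after normexp correction were 0.27 ± 0.10 in Morc1, 0.19 ± 0.10 in Lratd1 and 0.21 ± 0.13 in Adh1 (limma, adjusted p = 0.0868, 0.198 and 0.284), where 28% of all genes were called. In the authors' deposited values, with the same block, they were 0.40 ± 0.13, 0.25 ± 0.11 and 0.27 ± 0.15 in the same order (limma, adjusted p = 0.0605, 0.13 and 0.216), where 25.6% were called. For the fitted probes the direction was thus the same on all 3 scales, and the calls were made on 1. In the authors' values, probe 1 of Adh1 differed by 0.14, -0.16 and 0.11 in mice 2, 3 and 4, with a mean of 0.03. Probe 1 of Lratd1 differed there by 0.40, 0.01 and 0.04. With miR-29b, Morc1, Lratd1 and Adh1 averaged -5.68 ± 1.43, -5.76 ± 0.28 and -5.24 ± 0.64, against -2.54 ± 0.51, -1.98 ± 0.39 and 0.47 ± 0.16 in wild-type controls (SD, n = 3 each), an order that the choice of the genes fixes.

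The other 5 genes did not pass either way, and nothing is read from this: of their Dgcr8-deficient readings, 0 in Zfp979 and Mctp1, 1 in Ifi202b and 2 each in H2-T3 and Tktl1 were well above background, so most differences are between values near the floor. Ifi202b differed by 0.48, 3.05 and -0.52 in mice 2, 3 and 4, so its fitted difference of 1.003 ± 0.77 came from mouse 3, and it was -0.02 without that mouse. Tktl1 differed by 0.80, 1.43 and -0.46 and Mctp1 by -0.17, 0.92 and -0.20, with the highest value again in mouse 3. Zfp979 differed by 0.19 and 0.997 in mice 2 and 4, and H2-T3 by 0.20 and less than 0.01.

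**Figure D5:**
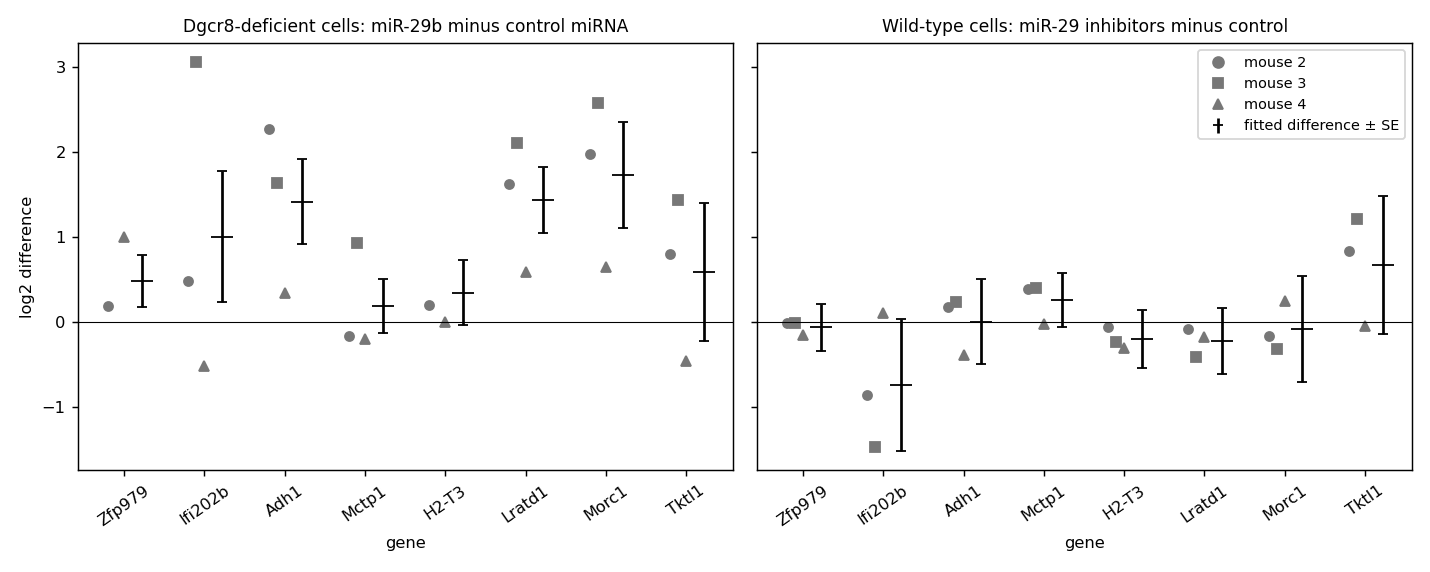
Log2 difference of each of the 8 genes (horizontal axis) within mice 2, 3 and 4 (circles, squares and triangles), miR-29b minus control miRNA in Dgcr8-deficient cells on the left and inhibitors minus control inhibitors in wild-type cells on the right, with the fitted difference and its standard error in black. Adh1, Lratd1 and Morc1 are above 0 in all 3 Dgcr8-deficient mice, and the fitted differences of the wild-type cells lie between -0.74 and 0.67.

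Inhibitors of miR-29 in wild-type cells, where the 8 genes were well above background on every array, gave no change that passed in limma, and 0 of the 8 genes had an unadjusted p under 0.05. The choice of the genes used all wild-type arrays, those with inhibitors included, so a gene strongly lowered by the inhibitors could hardly have been chosen. This comparison, too, is thus not independent of the choice. The fitted differences were -0.06 ± 0.27 in Zfp979, -0.74 ± 0.77 in Ifi202b, 0.00 ± 0.50 in Adh1 and 0.25 ± 0.32 in Mctp1. They were -0.20 ± 0.34 in H2-T3, -0.22 ± 0.39 in Lratd1, -0.08 ± 0.62 in Morc1 and 0.67 ± 0.81 in Tktl1. Over all genes limma called 0 of 14719 (0%) here, with 61 at an unadjusted p under 0.05, and 0 when blocked by mouse, with 512 at an unadjusted p under 0.05. Lratd1, Zfp979 and H2-T3 were lower in 3 of 3 wild-type mice, by at most 0.41, and the other 5 genes differed in direction between mice. With the mouse as a block, the standard errors ran from 0.10 in H2-T3 to 0.67 in Ifi202b. The smallest unadjusted p of the 8 genes was then 0.0879, in H2-T3 (limma). A p above the threshold does not show that a gene was unaffected. The standard errors, 0.27 to 0.81 without the block, set the size of change that could be seen.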

How the data were processed

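Total RNA of 12 cultures was read on one-colour arrays, and the deposited files hold spot intensity in arbitrary units, background-subtracted by Agilent Feature Extraction 10.5.1.1 per the file headers. A log2 table deposited by the authors served as an alternative; the submitters' processing notes name limma for it, without version or steps. Processed signals were converted to log2 and the 75th percentile of the non-control spots of each array was subtracted. Outlier-marked spots were left out, spots of a probe were averaged, and a probe was kept when well above background on at least 3 of 12 arrays, which left 32215 probes, 21098 with 1 gene symbol. The brightest kept probe stood for each of 14719 genes, of which 4977 had more than 1.

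Gene names came from the accession of each probe, matched to RefSeq (GRCm38.p6), and 24844 of 41174 probes had 1 symbol. The 4 groups were fitted on all 12 arrays in limma (version 3.58.1, under R 4.3.3, with data.table of version 1.17.8), with Benjamini-Hochberg adjustment over all genes and a threshold of 0.05, tested on simulated data. Python 3.11.15 with pandas 2.3.3, numpy 2.4.6 and matplotlib 3.10.9 served for the rest. The number of arrays limits the precision, and p-values measure the spread between 3 mice a group. A fold is given as a bound where no array of the dim group was well above background: each such array was set to the higher of its own level and the lowest level scored well above background there, which leaves out sampling error.

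Arrays of one mouse deviated together, with correlations of residuals of 0.646, 0.61 and 0.746 in Dgcr8-deficient and 0.446, 0.726 and 0.418 in wild-type mice. The series' design states that both cultures come from each mouse, so the mouse served as a block in an alternative. Equal numbers across genotypes correlated at 0.272, -0.283 and -0.354 and were not paired. Other alternatives were normexp with an offset of 50 and quantile normalization, the authors' values, median scaling, no filter on dim probes, the mean of a gene's kept probes, slide or scan day as a block, fewer arrays in the fit and leaving out arrays or mice. The mouse block on normexp and on the authors' values was added after seeing the data. Normexp used the median spot signal, since no mean signal was in the files used here.

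The 8 genes, the lists and the tests were chosen with earlier results of these data known. The text names all members and their probes, Dgcr8, the 10 and 5 other genes with the widest gaps in either direction, called neighbours, and up to 4 genes a list with the smallest p. Genes named beyond that rule (H2-M3, H2-K1, H2-D1, B2m, Tkt, Cd4, Pax5, Ddx3y, St6galnac2 and some neighbours of Dgcr8) were chosen after their values were seen. A few called genes are not reported here by name.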

Additional observations from a re-analysis of the deposited data

Results flagged for a closer look

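Among the members 2 readings were left out of the values above because the scanner software marked their spots as non-uniform, both on the array of Dgcr8-deficient mouse 3 with miR-29b, the array with 1577 marked spots. That of Zfp979 stood at -3.42, against a highest other Dgcr8-deficient level of -7.99 and a lowest wild-type level of -0.54. That of H2-T3 stood at -1.76, against a highest other Dgcr8-deficient level of -6.17 and a lowest wild-type level of -1.26. In the authors' deposited values, which keep these spots, the same readings were 6.08 for Zfp979, against 5.44 for the highest other Dgcr8-deficient and 9.39 for the lowest wild-type array, and 8.12 for H2-T3, against 5.80 for the highest other Dgcr8-deficient and 8.94 for the lowest wild-type array. With the marked spots kept, both genes would still lie below all wild-type arrays, with gaps of 2.87 and 0.50. Among the 8 genes the widest gap would then be that of Mctp1 (5.46) in place of Zfp979. The narrowest would be that of H2-T3 in place of Morc1 (1.15). What made these spots bright was not tested.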

How the results depend on the processing

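All 8 control differences between the genotypes stayed negative under the 27 alternatives, with a median over the genes of -6.43 to -6.03 when arrays or mice were left out. This median was -2.87 with normexp and -3.46 in the authors' values. Genotype calls over all genes were 1882 to 3399 in the leave-outs (970 to 1996 lower, 834 to 1403 higher), 5849 with scan day as a block (3555 lower, 2294 higher) and 6318 with slide as a block (3929 and 2389). Calls for miR-29b were 0 to 287 in the leave-outs, 641 with normexp, 571 in the authors' values, 208 with median scaling, 0 with only the 6 arrays compared, and 1928 and 2689 with scan day and slide as a block. Pairing arrays by mouse as a block gave 3316 calls for miR-29b and 3 member calls, and changed no call of the inhibitors. The same block, chosen after seeing the data, gave 4126 calls on normexp values and 3764 on the authors' values, with 0 member calls on both in limma, where 1 and 2 of Adh1, Lratd1 and Morc1 had an unadjusted p under 0.05. Member calls were 0 to 1 in the leave-outs, 1 with scan day as a block (Lratd1) and 3 with slide as a block. Called neighbours numbered 21 to 50 in the leave-outs, and those of Dgcr8 4 to 12, with 71 and 22 under the scan day block and 76 and 22 under the slide block. Called list genes numbered 20 to 36, 65 and 68 in the same order. Inhibitor calls were 0 throughout. Dgcr8 passed in 7 of 27 alternatives (adjusted p from 0.00134 to 0.226).

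Some differences with miR-29b or inhibitors that passed under none of these settings changed sign. For miR-29b these were Tktl1 (-0.021 with normexp, -0.036 in the authors' values, -0.16 to 1.45 in the leave-outs), Mctp1 (-0.036 in the authors' values, -0.017 with median scaling, -0.18 to 0.37 in the leave-outs), H2-T3 (-0.20 to 0.88) and Ifi202b (-0.022 to 1.77). For the inhibitors these were Adh1 (-0.0090 with median scaling, -0.18 to 0.20 in the leave-outs), Morc1 (-0.32 to 0.20) and Zfp979 (-0.29 to 0.14). The cause was not tested. Signals near background limit every value in Dgcr8-deficient cells.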

Other observations

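Of the 8 genes on each Dgcr8-deficient array, the median level was -7.10, -5.68 and -7.11 with miR-29b and -7.93, -7.91 and -7.42 with control miRNA in mice 2, 3 and 4. The highest value, that of mouse 3 with miR-29b, was from the array with the most marked spots and with 9 instead of 11 usable member probes.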
